A study of Mus musculus with 6 samples.

Results

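The semaphorins, plexins and neuropilins were examined as a family of guidance ligands and receptors in cultured mouse ventral midbrain, the embryonic source of the midbrain dopamine neurons. The members were all genes of the 3 families that the gene list names, matched by symbol: 20 semaphorins, 9 plexins and 2 neuropilins, 31 genes of 42396 in the count tables. All 31 were found, and all 31 were among the 17439 genes that passed the filter on low counts. The cells were primary cells from wild-type (WT) embryos at embryonic day 14, plated at 150000 per well and infected that day with lentivirus at a multiplicity of infection of 5. The control group of 3 libraries received a scramble hairpin (pll3.7-Scr2). The knockdown group of 3 libraries received a hairpin against circRmst (pll3.7-shRmstI), a circular RNA of the long non-coding RNA gene Rmst. RNA was taken at 3 days in vitro, from 3 cultures made independently. Which of the libraries came from the same culture is not stated, so p-values measure the spread between these libraries. Each group rests on 1 hairpin, both groups carry the virus, and each library pools cells of several wells and of all types in the culture. The study set out to learn what lowering circRmst does to neuron shape, to migration and to gene expression, and the guidance genes bear on that question.

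Semaphorins are guidance proteins that steer axons and migrating neurons, often by repulsion. Class 3 semaphorins are secreted and bind neuropilins, which hold the ligand, while a plexin in the same membrane carries the signal into the cell. Classes 4 to 6 span the membrane and mostly bind plexins directly, and Sema7a is attached to the membrane by a lipid. Plexins act through a GTPase-activating domain on Ras-family GTPases, and the ligands and receptors are known in the midbrain for guiding and fasciculating dopamine axons.

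The libraries held between 27248934 (control replicate 3) and 43646521 counts (knockdown replicate 1). Rmst, the host gene of the targeted circle, was at 115, 117 and 124 CPM in control replicates 1 to 3 against 105, 97.1 and 115 CPM in knockdown replicates 1 to 3. CPM is a gene's count scaled to the size of its library, adjusted by TMM. A count per gene adds linear and circular RNA, so these values do not check the knockdown. The samples are labelled as dopamine neurons. Th, which encodes the enzyme that starts dopamine synthesis, was present at 49.9 ± 10.2 CPM in control libraries against 49.3 ± 11.4 CPM in knockdown libraries (SD, n = 3 each). Markers of other cells were also present: in control libraries, Gad1 of GABAergic neurons was at 273 ± 28.2 CPM, Vim of radial glia and astrocytes at 517 ± 52.5 CPM, Mbp of oligodendrocytes at 112 ± 21.9 CPM and Mki67 of dividing cells at 91.5 ± 33.4 CPM. The most abundant genes of the remaining marker lists were En1 of dopamine neurons (110 ± 4.99 CPM), Tubb3 of neurons in general (1435 ± 243 CPM), Tcf7l2 of glutamatergic neurons (146 ± 133 CPM), Acta2 of mural cells (55.5 ± 20.9 CPM), Cd68 of microglia (8.79 ± 1.11 CPM), Kdr of endothelial cells (15.6 ± 1.57 CPM) and Hbb-bs of red blood cells (7.12 ± 3.77 CPM). Among the lists, 7 of 8 genes of dividing cells (median log2 fold change -0.29) and 7 of 9 of microglia (median -0.27) were below the control. In each, 0 were called and 2 had an unadjusted p under 0.05 in edgeR's test, a larger share than the 1.10% of all genes tested. The lists are short, and genes of 1 list can vary together. Red blood cell genes were above the control in 3 of 3 (median 0.42), and dopamine neuron genes below it in 9 of 12 (median -0.03). Knockdown replicates 1 and 3 stood apart from the other libraries, in opposite directions, in genes that span a long stretch of the genome. Of 2189 genes of at least 1 CPM that span over 100 kb, 85.8% were below their own 6-library mean in knockdown replicate 1 and 19.0% in knockdown replicate 3, against 38.6% to 55.9% in the other 4 libraries.

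Receptors took the top ranks of the family by level. Levels are compared between genes in FPKM, which is scaled by transcript length. Plxna1, a signalling receptor for class 3 and class 6 semaphorins, had the highest level of the 31, at 33.1, 36.0 and 28.2 FPKM in control replicates 1 to 3 against 35.2, 37.3 and 31.3 FPKM in knockdown replicates 1 to 3. Plxnb2, a receptor for class 4 semaphorins, followed at 21.4, 25.7 and 23.7 FPKM in control libraries against 24.1, 26.7 and 22.2 FPKM in knockdown libraries. Nrp2, the neuropilin that Sema3f prefers, was at 20.6, 21.3 and 19.2 FPKM in control libraries against 19.1, 21.5 and 20.2 FPKM in knockdown libraries. The lowest library of Plxna1 lay above the highest library of each other member, whereas Plxnb2 and Nrp2 overlapped in level.

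The ligand with the highest FPKM was Sema6b, a transmembrane ligand of A-type plexins, at 16.1, 20.8 and 17.4 FPKM in control libraries against 20.5, 23.2 and 16.4 FPKM in knockdown libraries. The secreted ligands were low beside the transmembrane ones. Summed over its 7 genes, class 3 came to 12.5 ± 1.02 FPKM in control libraries against 12.7 ± 1.19 FPKM in knockdown libraries (SD, n = 3 each), whereas the 12 genes of classes 4 to 6 came to 108 ± 5.83 and 113 ± 4.46 FPKM. Sema3f had the highest FPKM of the secreted ligands, at 5.20 ± 0.989 FPKM in control libraries, followed by Sema3c at 3.47 ± 0.164 FPKM. Sema3a, the ligand first known as collapsin, was at 1.67 ± 0.294 FPKM. Sema3g, a ligand best known from blood vessels, had the lowest level of the 31 genes, at 0.0984 ± 0.0326 FPKM in control libraries against 0.0943 ± 0.0569 FPKM in knockdown libraries.

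Among the receptors, the 4 A-type plexins summed to 67.3 ± 5.03 FPKM in control libraries against 69.2 ± 3.05 FPKM in knockdown libraries, and the 3 B-type plexins to 37.5 ± 2.09 and 38.9 ± 2.68 FPKM (SD, n = 3 each). The neuropilins summed to 30.4 ± 1.80 FPKM in control libraries against 30.1 ± 2.03 FPKM in knockdown libraries. Plxnb3, a plexin of the oligodendrocyte lineage, and Plxnd1, a receptor for Sema3e that is prominent in endothelial cells, were the low receptors, at 1.62 ± 0.373 and 1.29 ± 0.158 FPKM in control libraries. Of the family's summed FPKM in control libraries, semaphorins held 46.5% ± 0.198, plexins 42.6% ± 0.478 and neuropilins 10.9% ± 0.349. In the knockdown these shares were 47.1% ± 0.453, 42.4% ± 0.290 and 10.5% ± 0.337, each less than 1 percentage point from the control.

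**Figure D1:**
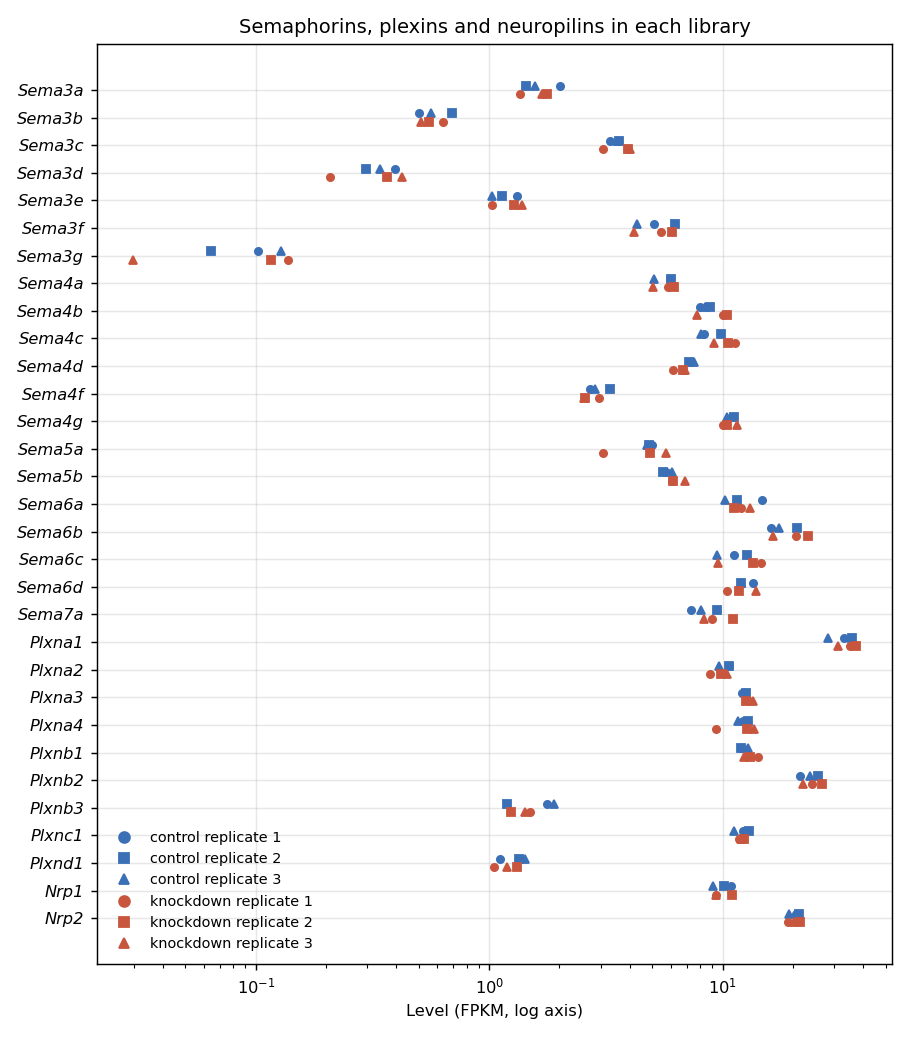
Level of each of the 31 genes in each of the 6 libraries, in FPKM on a log axis, with the control in blue, the knockdown in red and 1 marker shape per replicate number. Plxna1 lies farthest to the right in all 6 libraries and Sema3g farthest to the left, and 5 of the 7 secreted ligands (Sema3f and Sema3c apart) reach no higher than 2.00 FPKM.

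No member passed edgeR's quasi-likelihood test of knockdown against control, which called 0 of 31 at an adjusted p under 0.05 and 0 of 31 at an unadjusted p under 0.05. Over all 17439 genes tested, 0.00% were called and 1.10% had an unadjusted p under 0.05. That share is below the fraction of 0.05 that a calibrated test gives where no gene differs. The p-values may thus run high in these libraries, and 0 of 31 does not show that no member changed. The reason for the low share was not tested. Control and knockdown values were fully separated in 0 of 31 members, against 5.20% of all genes tested. Of the 31 members, 16 had a log2 fold change (knockdown against control) above 0 and 15 below it, where 48.1% of all genes were above 0. The median log2 fold change was 0.000107 over the members and -0.00603 over all genes tested. For 27 of 31 members the 95% interval stayed inside a 1.5-fold rise or drop. It did so for 65.0% of all genes, which were not matched to the members in level, so the shares cannot be compared directly. The other 4 members were the low genes Sema3d and Sema3g, Sema4f and Plxnb3. Sema3g alone had an interval that reached beyond a 2-fold change. With 1 library left out no member was called either.

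**Figure D2:**
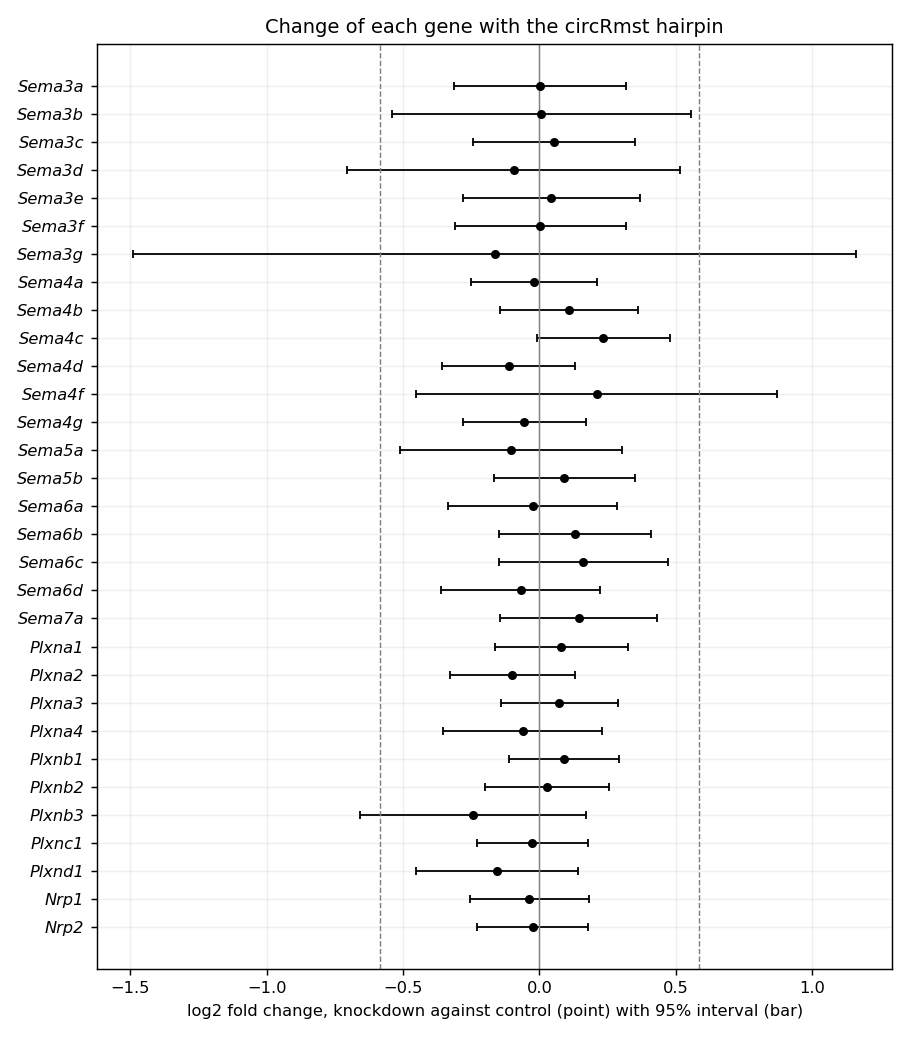
Log2 fold change of each gene, knockdown against control (points), with its 95% interval from edgeR's quasi-likelihood test (bars), with dashed lines at a 1.5-fold change in either direction. Every interval crosses 0, with Sema4c nearest to excluding it (-0.00919 to 0.48).

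The secreted ligands, class 3, had log2 fold changes between -0.16 and 0.05, with 5 of 7 above 0 and a median of 0.00256. Sema3a was at 21.2, 15.9 and 16.7 CPM in control replicates 1 to 3 against 15.8, 19.1 and 19.0 CPM in knockdown replicates 1 to 3, a log2 fold change of 0.000107 ± 0.14 (SE). Sema3f, which repels axons through Nrp2, was at 38.8, 45.7 and 34.1 CPM in control libraries against 43.0, 42.7 and 33.1 CPM in knockdown libraries. In both genes the groups overlapped throughout, and replicate 3 of each group was the low library for Sema3f. Sema3c, which can attract as well as repel axons, was at 30.5, 33.0 and 33.4 CPM in control libraries against 27.1, 36.0 and 37.5 CPM in knockdown libraries. Its lowest and its highest library both lay in the knockdown group. Sema3e, the ligand of Plxnd1, had a log2 fold change of 0.04 ± 0.15, and Sema3b one of 0.00695 ± 0.25. Sema3g was close to the limit of detection, at 0.253 to 0.878 CPM in control libraries against 0.167 to 0.873 CPM in knockdown libraries, and its log2 fold change of -0.16 ± 0.60 had an interval from -1.49 to 1.16.

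Of the 7 class 3 genes, 4 lie on chromosome 5, 2 on chromosome 9 and Sema3g alone on chromosome 14. On chromosome 5, Sema3d (chr5:12383161-12588953, GRCm38), Sema3a (chr5:13124822-13603485), Sema3e (chr5:14025276-14256689) and Sema3c (chr5:17574816-17730268) follow each other. The lowest library of all 4 was knockdown replicate 1, where their median deviation from the 6-library mean was -0.25 log2 units, and in knockdown replicates 2 and 3 it was 0.10 and 0.19. In Sema3d this was largest, at 4.54, 3.39 and 3.92 CPM in control libraries against 2.23, 4.00 and 4.87 CPM in knockdown libraries. The neighbours Sema3b (chr9:107597674-107609241) and Sema3f (chr9:107681499-107710475), each spanning under 100 kb, did not have their lowest value there: Sema3b was at 3.49 CPM in knockdown replicate 1, between 2.37 and 3.79 CPM in control libraries.

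The transmembrane ligands, classes 4 to 6, were split evenly, with 6 of 12 above 0 and a median log2 fold change of 0.04. Sema4c, a ligand of Plxnb2 (chr1:36548639-36560699), had the smallest p of the 31 genes. It was at 66.5, 77.8 and 66.0 CPM in control replicates 1 to 3 against 91.5, 80.7 and 75.1 CPM in knockdown replicates 1 to 3. The groups met in control replicate 2, which was above knockdown replicate 3, and the highest value was knockdown replicate 1. The log2 fold change was 0.23 ± 0.11 (SE), with an unadjusted p of 0.0578 and an adjusted p of 1.00 in edgeR's test. Without knockdown replicate 1 it was 0.15, and without control replicate 2 it was 0.33.

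The other class 4 ligands had smaller changes on the log2 scale. Sema4b had a log2 fold change of 0.11 ± 0.11, and Sema4a, which also acts on immune cells, one of -0.02 ± 0.10. Sema4d, a ligand of Plxnb1, was at 50.5, 52.9 and 57.9 CPM in control libraries against 44.2, 51.7 and 53.2 CPM in knockdown libraries, a log2 fold change of -0.11 ± 0.11. Up to 82 counts of the annotated RNA Gm19281, which overlaps Sema4d, stood beside it, at most 3.97% of the count of Sema4d. Sema4g, the class 4 ligand with the highest mean FPKM when the main entry of each gene is taken, was at 91.2, 94.1 and 87.5 CPM in control libraries against 81.9, 82.1 and 98.6 CPM in knockdown libraries. The level of Sema4f is uncertain: it was counted at only 28 to 70 reads per library, and the tables hold a copy of it on an alternate sequence, Sema4f_1, with 0 to 12 counts. From its counts, Sema4f had a log2 fold change of 0.21 ± 0.30, which was 0.43 without control replicate 2 and 0.06 without knockdown replicate 1. The FPKM ran the other way. In FPKM the entry Sema4f was at 2.71, 3.30 and 2.84 in control libraries against 2.96, 2.56 and 2.55 in knockdown libraries, and the copy stood at 6.30, 7.56 and 8.19 FPKM in control libraries against 4.28, 5.40 and 3.91 FPKM in knockdown libraries. The copy's FPKM was lower in each knockdown library than in any control library, while its counts were too few to compare, a contrast noticed after the values were seen. In FPKM on a log2 scale, up to 6.45% of all genes did not overlap between the groups. The copy's FPKM did not follow its counts: control replicate 3 had 0 counts at 8.19 FPKM, and knockdown replicate 1 had 10 counts at 4.28 FPKM.

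In class 5, whose proteins carry thrombospondin repeats, Sema5a varied more among the knockdown libraries than among the control libraries. It was at 93.8, 92.4 and 89.3 CPM in control libraries against 58.1, 86.8 and 112 CPM in knockdown libraries. The control libraries lay within 5 CPM of each other, and the knockdown held both the lowest and the highest value. Its log2 fold change was -0.10 ± 0.18, and without knockdown replicate 1 it was 0.11. Sema5b had 0.09 ± 0.12.

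Class 6 held the ligands with the highest FPKM. Sema6a, a ligand of Plxna2 and Plxna4, was at 253, 202 and 187 CPM in control libraries against 211, 177 and 243 CPM in knockdown libraries. Sema6d, a ligand of Plxna1 (chr2:124089943-124667789), was at 155, 136 and 140 CPM in control libraries against 118, 124 and 167 CPM in knockdown libraries, and the control lay inside the range of the knockdown. Sema6b had a log2 fold change of 0.13 ± 0.13. Sema6c (chr3:95160420-95174050) was at 89.8, 104 and 80.2 CPM in control libraries against 119, 104 and 82.8 CPM in knockdown libraries, a log2 fold change of 0.16 ± 0.14 that was 0.04 without knockdown replicate 1. Sema7a, the lipid-anchored member, which also binds integrins, was at 40.7, 54.5 and 47.7 CPM in control libraries against 50.8, 59.1 and 48.0 CPM in knockdown libraries, with a log2 fold change of 0.14 ± 0.13. In Sema7a and in Sema6b, the highest library of each group was replicate 2.

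The A-type plexins, which signal for neuropilin-bound class 3 ligands and for class 6 ligands, gave 2 values above 0 and 2 below. Plxna1 was at 586, 647 and 509 CPM in control libraries against 624, 640 and 576.5 CPM in knockdown libraries, a log2 fold change of 0.08 ± 0.11. Plxna2 was at 219, 218 and 201 CPM in control libraries against 179, 193 and 223 CPM in knockdown libraries, a log2 fold change of -0.10 ± 0.10. Plxna3, the main plexin partner of Nrp2 for Sema3f, was at 179, 185 and 190 CPM in control libraries against 197, 175 and 210 CPM in knockdown libraries. Plxna4, a partner of Nrp1 for Sema3a (chr6:32144543-32588192), was at 292, 307 and 281 CPM in control libraries against 224, 288 and 330 CPM in knockdown libraries. Knockdown replicate 1 was the lowest of the 6 libraries for Plxna2 and Plxna4, and knockdown replicate 3 the highest.

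Among the B-type plexins, Plxnb1 had a log2 fold change of 0.09 ± 0.09 and Plxnb2 one of 0.03 ± 0.10. Plxnb3 was at 19.95, 13.8 and 24.7 CPM in control libraries against 17.8, 14.5 and 17.0 CPM in knockdown libraries, with a log2 fold change of -0.24 ± 0.19 (unadjusted p = 0.223, adjusted p = 1.00 in edgeR's test) that was -0.43 without control replicate 2 and -0.03 without control replicate 3. Both groups had their lowest value in replicate 2. Markers of the oligodendrocyte lineage were below the control as well: 11 of 11 tested markers had a log2 fold change below 0, with a median of -0.31. Of these markers 0 were called and 2 had an unadjusted p under 0.05 in edgeR's test, a larger share than the 1.10% of all genes tested. Their mean deviation was 0.31, -0.27 and 0.39 log2 units in control replicates 1 to 3 against -0.16, -0.33 and 0.04 in knockdown replicates 1 to 3. Plxnb3 itself deviated by 0.18, -0.35 and 0.49 in control libraries against 0.02, -0.28 and -0.05 in knockdown libraries. Within the knockdown the order differed, with Plxnb3 highest in replicate 1 and these markers highest in replicate 3. Markers of dividing cells and of microglia also stood higher in control replicates 1 and 3 than in control replicate 2. The mean deviation of dividing-cell markers was 0.26, -0.15 and 0.21 in control libraries against -0.04, -0.12 and -0.16 in knockdown libraries. That of microglia markers was 0.20, -0.01 and 0.12 against -0.09, -0.16 and -0.06. The summed level of the oligodendrocyte markers ran from 444 to 695 CPM in control libraries and from 434 to 538 CPM in knockdown libraries. Mog, a marker of mature myelin, had 0 counts in 5 libraries and 2 in control replicate 1. The part of any of these cell types in the values of Plxnb3 was not tested. In bulk RNA, fewer cells of a type and less RNA per cell cannot be told apart.

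Plxnc1, the receptor of Sema7a, lay between 166 and 189 CPM in control libraries and between 170 and 183 CPM in knockdown libraries, with a log2 fold change of -0.03 ± 0.09. Plxnd1 was at 16.2, 19.1 and 21.0 CPM in control libraries against 14.9, 17.7 and 17.8 CPM in knockdown libraries, a log2 fold change of -0.16 ± 0.13. Its lowest library was knockdown replicate 1, where the mean deviation of the 5 tested endothelial markers was -0.46, against -0.03 to 0.22 in the other 5 libraries. Their summed level did not follow Plxnd1: it was lowest in control replicate 3, at 18.3 CPM, where Plxnd1 was highest, and was 18.4 CPM in knockdown replicate 1. Endothelial RNA was sparse, with a summed level of the 5 markers of at most 23.4 CPM in any library, 0 to 4 counts of Cdh5 and 0 counts of Cldn5 in every library, and its part in the values of Plxnd1 was not tested.

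The neuropilins, the ligand-binding co-receptors of class 3, both had a log2 fold change just below 0. Nrp1, which binds Sema3a, was at 111, 105 and 95.2 CPM in control libraries against 95.9, 109 and 98.6 CPM in knockdown libraries, with a log2 fold change of -0.04 ± 0.10. Nrp2 was at 236, 247 and 225 CPM in control libraries against 217, 238 and 241 CPM in knockdown libraries, with -0.02 ± 0.09. The 95% interval of Nrp2 ran from -0.23 to 0.18 and that of Nrp1 from -0.26 to 0.18.

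**Figure D3:**
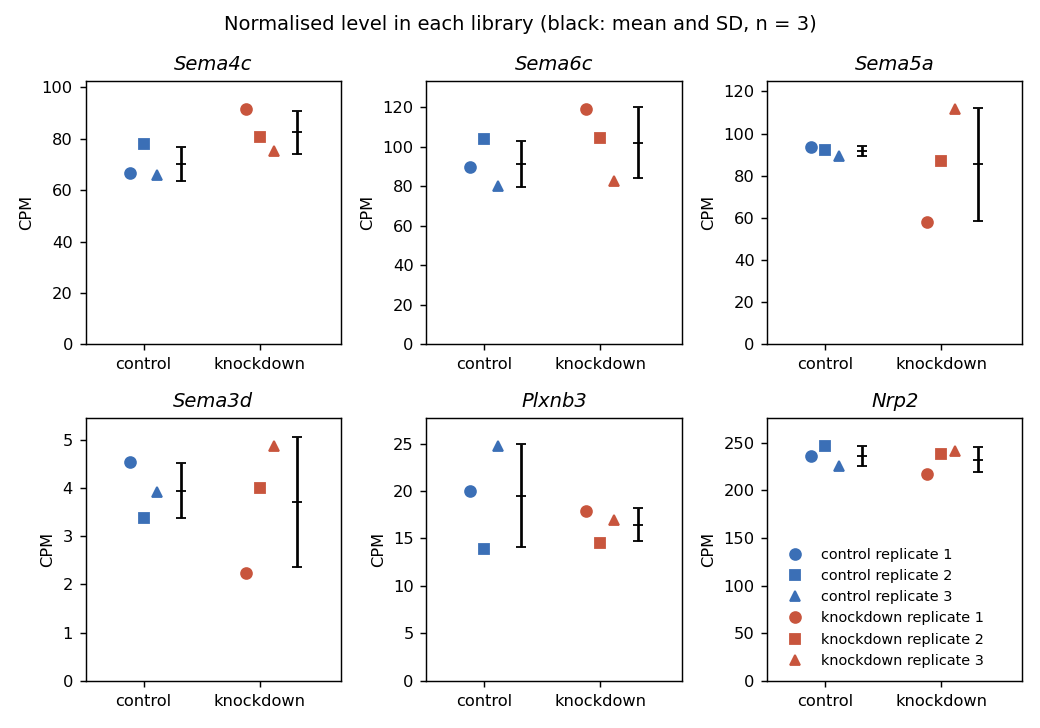
TMM-scaled CPM of 6 genes in each library (linear axes from 0, points by replicate number) with the mean and SD of each group in black. Sema4c is highest and Sema5a and Sema3d lowest in knockdown replicate 1, Plxnb3 is low in replicate 2 of both groups, and Nrp2 stays between 217 and 247 CPM.

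Within the family, deviations in several libraries followed the span of the gene, a feature noticed after the values were seen. The 14 members that span over 100 kb include the 4 genes of the chromosome 5 cluster, Sema4d, Sema5a, Sema5b, Sema6a, Sema6d, Plxna2, Plxna4, Plxnc1 and both neuropilins, and the other 17 span between 11.6 and 46.3 kb. In knockdown replicate 1, 12 of the 14 long genes were below their 6-library mean, with a median deviation of -0.20 log2 units, and 2 of the 17 short genes were, with a median of 0.13. In knockdown replicate 3 the pattern was the opposite, with 1 of 14 long genes below (median 0.19) and 11 of 17 short genes below (median -0.05). Control replicate 1 had the same order as knockdown replicate 3, with 3 of 14 long genes (median 0.10) and 13 of 17 short genes (median -0.10) below. In knockdown replicate 2 there were 6 of 14 and 7 of 17 below, in control replicate 2 6 of 14 and 4 of 17, and in control replicate 3 8 of 14 and 11 of 17. Of all genes of at least 1 CPM that span over 100 kb, 85.8% were below in knockdown replicate 1, 19.0% in knockdown replicate 3 and 40.9% in control replicate 1. For those that span less the shares were 42.3%, 57.5% and 50.8%. Across the 31 members, Spearman's rho between span and deviation was -0.78 in knockdown replicate 1, 0.62 in knockdown replicate 3 and 0.49 in control replicate 1. It was -0.05 in knockdown replicate 2, -0.25 in control replicate 2 and 0.09 in control replicate 3. The members share their library here. Over 14467 genes of at least 1 CPM, members among them, the same measure was -0.39 in knockdown replicate 1, 0.41 in knockdown replicate 3 and 0.17 in control replicate 1. In these libraries its sign was that of the members, as in knockdown replicate 2, at -0.08. In control replicates 2 and 3 it was 0.02 and -0.14, opposite in sign to the members.

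The span also divided the fold changes. Of the long members, 10 of 14 had a log2 fold change below 0 (median -0.03), and of the short members 5 of 17 did (median 0.07). Without knockdown replicate 1, 5 of 14 long members were below 0 and their median was 0.05, with 0.04 for the short ones. Without knockdown replicate 3, 14 of 14 long members were below 0, with a median of -0.09, and the short ones had 0.13. Without control replicate 1, 7 of 14 long members were below 0, with a median of 0.00569, and the short ones had 0.05. Over all genes of at least 1 CPM the median log2 fold change was -0.03 for the 2189 that span over 100 kb and 0.000799 for the 12278 that span less. Above 0 were 777 of these 2189 genes and 6173 of these 12278, beside 4 of the 14 long members and 12 of the 17 short ones. The long members were thus near the share of all long genes. The within-group SD of log2 CPM was larger in knockdown libraries than in control libraries for 11 of 14 long members and 9 of 17 short ones, against 69.0% and 50.3% of all genes in those bands. What sets these libraries apart was not tested.

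**Figure D4:**
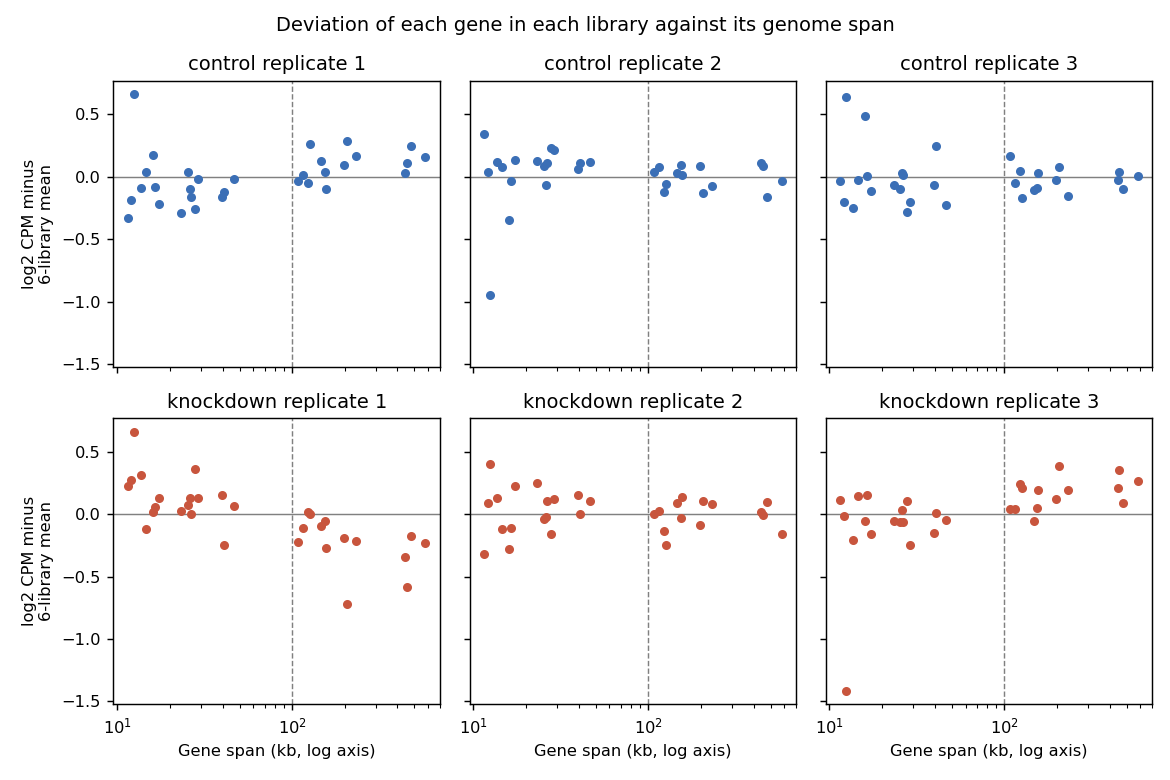
Deviation of each of the 31 genes from its 6-library mean (log2 CPM) against its genome span in kb on a log axis, 1 panel per library, with a dashed line at 100 kb. In knockdown replicate 1 the long genes lie mostly below 0 and the short ones above it, and in knockdown replicate 3 the long genes lie above 0.

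The upstream sequences of 2 short members that were highest in knockdown replicate 1 and of 2 long members that were lowest there are shown, since these 4 genes lay furthest apart in that library among members of at least 1 CPM for which RefSeq promoters (GRCm38.p6) were matched, Sema4f with its uncertain level left aside. Each run is the 250 bases before a transcript start, 5′ to 3′ along the gene, and capitals mark the GC box GGGCGG or its reverse complement CCGCCC, the core site of Sp-family factors, with overlapping matches joined. Where a gene has 2 listed starts, the one farther upstream is shown, which for Sema4c still lies inside the annotated span of the gene. Sema4c is at chr1:36558382-36558631 on the minus strand, and Sema6c at chr3:95160170-95160419, Sema3d at chr5:12382916-12383165 and Sema5a at chr15:32244563-32244812 are on the plus strand.
Sema4c: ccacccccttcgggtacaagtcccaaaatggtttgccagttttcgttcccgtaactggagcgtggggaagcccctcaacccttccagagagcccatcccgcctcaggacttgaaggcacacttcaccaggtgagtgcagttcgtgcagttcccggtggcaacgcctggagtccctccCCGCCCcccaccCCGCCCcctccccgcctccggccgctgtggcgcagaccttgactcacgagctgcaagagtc
Sema6c: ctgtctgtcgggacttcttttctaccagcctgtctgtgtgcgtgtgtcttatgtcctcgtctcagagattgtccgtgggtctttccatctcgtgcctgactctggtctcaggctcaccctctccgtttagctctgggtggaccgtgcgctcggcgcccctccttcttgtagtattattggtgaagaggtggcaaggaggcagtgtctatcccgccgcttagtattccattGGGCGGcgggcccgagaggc
Sema3d: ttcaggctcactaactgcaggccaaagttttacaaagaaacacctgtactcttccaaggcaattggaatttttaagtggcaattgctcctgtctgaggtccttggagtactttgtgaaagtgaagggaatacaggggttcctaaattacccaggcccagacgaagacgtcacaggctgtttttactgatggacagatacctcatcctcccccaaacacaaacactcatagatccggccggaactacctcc
Sema5a: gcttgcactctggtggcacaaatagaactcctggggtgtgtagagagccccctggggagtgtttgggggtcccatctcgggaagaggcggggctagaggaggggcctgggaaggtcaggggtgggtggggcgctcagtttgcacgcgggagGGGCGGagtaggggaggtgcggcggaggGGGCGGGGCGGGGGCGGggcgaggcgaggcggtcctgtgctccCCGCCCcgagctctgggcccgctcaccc

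The 4 sequences do not divide as the spans do. Sema5a, which was lowest in knockdown replicate 1, had 5 GC boxes and 72.0% G+C, and Sema3d, which was also lowest there, had 0 GC boxes and 46.8% G+C. Sema4c had 2 GC boxes and 64.4% G+C, and Sema6c had 1 and 57.6% G+C. Over the family, 26 of 31 members had promoters in the RefSeq table, 37 in all, and 27 of the 37 held a GC box. Plxna1, Plxna4, Sema3b, Sema3f and Sema6a were not matched. The share was 32.7% of all 32851 promoters of that length and 52.4% of the 16879 promoters of genes that passed the filter. The CCAAT box (CCAAT or ATTGG) was in 7 of the 37, against 33.9% of all promoters and 34.1% of those of genes that passed. Promoters of 1 gene can share bases, and a match describes these letters only.

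No gene of the listed signalling partners passed the test. Of 57 listed signalling partners 53 were tested, with 24 above and 29 below the control, a median log2 fold change of -0.00767, 0 called and 0 at an unadjusted p under 0.05. Among co-receptors and other semaphorin receptors 4 of 12 were above 0. The adaptor gene Tyrobp of microglia had -0.28 ± 0.21, and Chl1, an adhesion molecule that pairs with neuropilins, was at 852 ± 42.2 CPM in control libraries against 790 ± 67.5 CPM in knockdown libraries (SD, n = 3 each), with -0.11 ± 0.10 (SE). Among GTPases and their regulators 6 of 17 were above 0, with Rnd3, which binds plexins, at 0.12 ± 0.09 and Rac1, which drives actin assembly, at 0.13 ± 0.10.

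Of the kinases and cofilin, 5 of 12 were above 0. Cdk5r1, the activator of the kinase Cdk5 that phosphorylates collapsin response mediators, had a log2 fold change of 0.15 ± 0.12, and Limk1, which phosphorylates cofilin, had -0.12 ± 0.10. The collapsin response mediators themselves, the cytoskeletal effectors of Sema3a, were above 0 in 4 of 4 tested genes with a median of 0.04. Dpysl3 was at 2381, 2496 and 2383 CPM in control libraries against 2431, 2650 and 2648 CPM in knockdown libraries, a log2 fold change of 0.09 ± 0.10, and Crmp1 had 0.06 ± 0.12. The Mical oxidoreductases, which oxidise actin downstream of plexins, and their adaptors had 2 of 5 above 0, with Mical2 at -0.14 ± 0.19 and Mical3 at -0.05 ± 0.10. The 3 proteases that process semaphorins were all above 0, with Furin, which cleaves class 3 semaphorins, at 0.11 ± 0.11 and Adam17 at 0.08 ± 0.13. None of these partners had an interval that excluded 0 in edgeR's test.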

How the data were processed

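RNA depleted of ribosomal RNA was sequenced as stranded, paired 150-base reads, per the labels' protocols. For each of the 6 libraries the authors deposited whole-number counts per gene, not normalized, and a table of FPKM in the layout of Cufflinks. The submitters' processing notes name GRCm38 (mm10), Cufflinks 2.2.1, bcl2fastq 2.20 and DESeq2; for the aligner, the counting tool and the use of strand, nothing is given in the sources used here. Positions of 31 of 31 members were the same in the files and in RefSeq.

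Counts were filtered with filterByExpr, scaled by TMM and tested for group alone with edgeR 4.0.16 (R 4.3.3) by the quasi-likelihood test, with Benjamini-Hochberg adjustment over 17439 genes and a threshold of 0.05. Deviations are log2 CPM, with a prior count of 2, minus the gene's 6-library mean. Spans are gene start to end. The test was also run on simulated counts with independent noise in each gene and changes of 2-fold or more in some genes. That run does not cover smaller changes or shifts that many genes of a library share. Each pair of libraries within a group differed beyond sampling noise (chi-square per degree of freedom from 13.8 to 99.6). With 3 against 3, an exact permutation test cannot go below 0.10, so none is given. Alternatives were other scalings, filters and tools (DESeq2 1.42.0, limma 3.58.1), FPKM on a log2 scale, each library left out, and a replicate block. All 31 members are named, with the 2 signalling partners of smallest p in each group of that list, the most abundant gene of each cell type list, and Rmst. Th, Mog, Cdh5, Cldn5, Gm19281 and the Sema4f copy were added after their values were seen. The members and lists were chosen with earlier results of these data known. The grouping by span was added after seeing the data.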

Additional observations from a re-analysis of the deposited data

How the results depend on the processing

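No member was called at an adjusted p under 0.05 under any of 17 alternatives. Over all genes, 11 were called with no filter on low counts and 1 with DESeq2, and 0 under the others. Genes at an unadjusted p under 0.05 numbered 588 with no filter, 661 with log2(FPKM + 0.1), 634 with log2(FPKM + 1), 1073 with log2(FPKM + 0.1) and no filter, and 198 to 451 with 1 library left out. Members at an unadjusted p under 0.05 numbered 1 with no filter (Sema4c) and 0 to 2 with 1 library left out: Sema4c and Plxnb3 without control replicate 2, Sema4c and Sema6c without knockdown replicate 3. Members whose groups did not overlap numbered 1 when scaled by library totals (Sema4c), 2 in each of the FPKM settings (Sema4d lower, Plxna3 higher), where up to 6.45% of all genes did not overlap, and 1 to 7 with 1 library left out, where 12.3% to 17.3% of all genes did not overlap (17.3% where 7 members did not). The median log2 fold change ran from -0.029 to 0.036 for the members and from -0.049 to 0.034 for the plexins with 1 library left out.

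Whether the replicate numbers pair the samples is not known. Control and knockdown libraries were correlated over genes after each gene's group mean was subtracted from its log2 CPM. On these remainders, same-numbered libraries correlated at 0.22, 0.23 and 0.04, and differently numbered ones at -0.26 to 0.07. The highest correlations were thus those of numbers 1 and 2, whereas knockdown replicate 3 correlated more, at 0.07, with control replicate 1. The labels do not state the pairing and these correlations alone do not settle it. The main test therefore did not assume it, and a replicate block was run as an alternative. With the replicate block, 0 genes were called, 258 had an unadjusted p under 0.05, and 0 members did. More genes differed by replicate number than by group. By replicate number, 1559 genes (8.94%) had an unadjusted p under 0.05 in edgeR's test, against 1.10% by group in the main fit. By number 27 genes and 0 members were called, with 741 genes under no filter and 45 to 524 with 1 library left out.

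The sign held under every alternative for 13 members and changed for 18. Sema3a had a log2 fold change of -0.000577 with a filter of 1 CPM in 3 libraries, -0.00320 with limma voom, -0.0480 with log2(FPKM + 0.1), with or without a filter, and -0.0323 with log2(FPKM + 1). Sema3f had -0.00566 with limma voom. In the same FPKM settings, with 0.1 and with 1 added, Sema3b had -0.0331 and -0.0154, Sema4a 0.00387 and 0.00345, Sema4f -0.13 and -0.10, and Sema6a 0.00273 and 0.00172. With 1 library left out the ranges that crossed 0 were -0.093 to 0.021 for Nrp1, -0.048 to 0.021 for Nrp2, -0.19 to 0.076 for Plxna4, -0.039 to 0.10 for Plxnb2, -0.068 to 0.028 for Plxnc1, -0.065 to 0.14 for Sema3a, -0.14 to 0.22 for Sema3b, -0.026 to 0.19 for Sema3c, -0.34 to 0.17 for Sema3d, -0.036 to 0.15 for Sema3e, -0.084 to 0.13 for Sema3f, -0.59 to 0.30 for Sema3g, -0.063 to 0.033 for Sema4a, -0.33 to 0.11 for Sema5a, -0.00517 to 0.17 for Sema5b, -0.13 to 0.12 for Sema6a and -0.23 to 0.025 for Sema6d. The causes were not tested. The members with the fewest counts were Sema3g, at 7 to 38 per library, and Sema4f, at 28 to 70. CPM per kilobase was not run, since the length column of the FPKM tables is empty.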
